A study of Mus musculus and Homo sapiens with 10 samples.

Results

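HMEC Pol I sites without any UBF are the places where RNA polymerase I (Pol I) was called in human mammary epithelial cells and where the upstream binding factor (UBF), its usual partner, was called in neither of a pair of related lines. They were chosen as the Pol I peaks of HMEC that shared no base with a UBF peak of HMLER or of HMEC, so they were chosen by the overlap values, which are given as a description with no test. The rule left 8069 of 9294 Pol I peaks (percent of the list: 86.8, exact 95% interval 86.1 to 87.5). Of the other Pol I peaks, 959 overlapped UBF of HMLER only (10.3%) and 266 overlapped UBF of HMEC (2.86%, 2.53 to 3.22), of which 194 also overlapped UBF of HMLER (2.09% of the list).

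Chromatin immunoprecipitation with sequencing (ChIP-seq) was used in exponentially growing cells of 2 human lines. HMEC is a line of primary mammary epithelial cells immortalized with the telomerase gene TERT, and gave the Pol I list (antibodies against POLR1A, the largest subunit) and a list of 9478 UBF1/2 peaks. HMLER descends from HMEC, carries SV40 large T, TERT and an oncogenic HRAS allele (HRASV12G), and gave 32274 UBF1/2 peaks. TERT is thus shared by both lines, no Pol I list of HMLER was used here, and a single list was analysed for each antibody and line. The spread between replicates is therefore unknown, and the lists were compared by description alone. The intervals given with shares are 95% binomial intervals (Clopper-Pearson, exact). They cover counting error only, and neighbouring peaks are not independent. The lists give the position of each peak and no score, height or read count, so the depth is unknown and a wide peak is not known to be a strong one.

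Pol I is the polymerase that transcribes the tandem copies of the 45S ribosomal RNA gene in the nucleolus. UBF binds along those copies, keeps their chromatin open and helps to recruit Pol I through its partner factors. The 5S ribosomal RNA genes form a separate tandem array and are transcribed by RNA polymerase III. Repeated DNA of this kind is only partly represented in an assembly such as hg19, where copies of a repeat are placed on unlocated contigs, collapsed into fewer copies or left as gaps at the centromeres.

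The Pol I peaks without UBF were narrow and of nearly 1 size. Their median width was 288 bp (interval of the median 286 to 290), with quartiles of 246 and 318 bp. In all, 6940 of the 8069 (86.0%) were at least 200 bp and under 400 bp wide. The Pol I peaks with UBF of HMLER only had a median of 299 bp (294 to 302) and those with UBF of HMEC a median of 310 bp (303 to 316). The classes differed more in the upper part of the range: widths of 500 bp or more but under 1000 bp were found for 1.57% of the peaks without UBF, 2.19% of those with UBF of HMLER only and 7.14% of those with UBF of HMEC (4.35 to 10.9). A wide peak is more likely to meet another peak, so width is not independent of the rule and these differences were not tested. The UBF peaks were broader than the Pol I peaks, with medians of 982 bp in HMLER and 469 bp in HMEC.

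**Figure D1:**
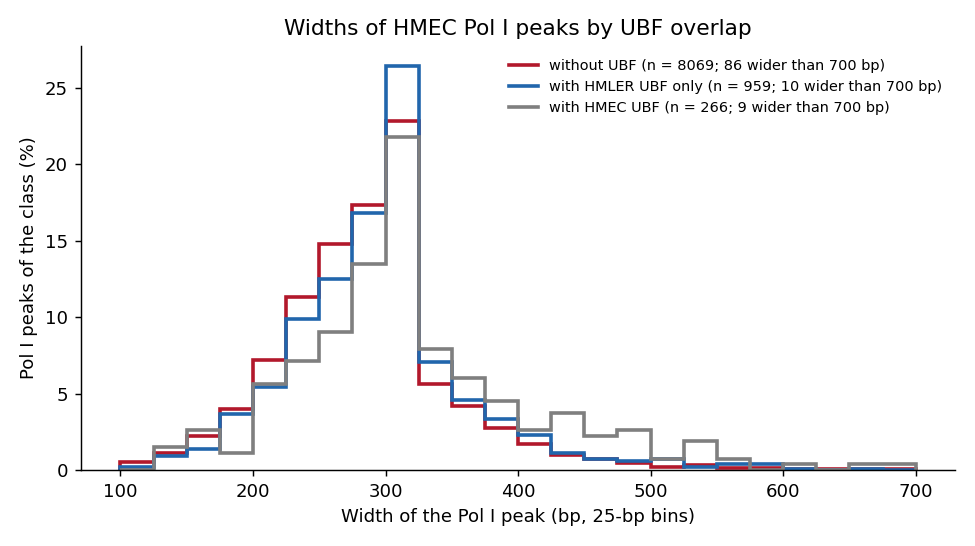
Widths of the HMEC Pol I peaks on the x axis (bp, bins of 25 bp) and the percent of the class on the y axis, for peaks without UBF, with UBF of HMLER only and with UBF of HMEC. All 3 classes are fullest between 300 and 325 bp, and the class with UBF of HMEC has the highest percent in each bin between 400 and 550 bp.

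At the other end, 53 Pol I peaks without UBF were 1000 bp wide or more (0.657% of them, 0.492 to 0.858). Among the Pol I peaks with UBF, 8 with UBF of HMLER only (0.834%, 0.361 to 1.64) and 2 with UBF of HMEC (0.752%, 0.0912 to 2.69) were as wide, with intervals that overlap. The wide peaks without UBF were not spread along the chromosomes. Of the 53, 12 lay on chromosome X, 12 on chromosome 1, 9 on chromosome 2, 5 on chromosome 10 and 4 on chromosome 16. In all, 23 lay within 1 Mb of a centromeric gap, 23 others lay in runs of Pol I peaks away from such gaps, 2 lay on contigs, and 5 lay elsewhere. These places held 90.6% of the wide peaks (79.3 to 96.9), against 3.37% of the narrower ones (2.98 to 3.79), where chromosome Y is counted with the contigs. The share depends on the width taken as wide, which was chosen after seeing the data: of the 180 peaks of 500 bp or more, 56.1% (48.5 to 63.5) lay in these places. The placement was not particular to peaks without UBF. Of the 8 wide peaks with UBF of HMLER only, those of 5666, 6417, 1034, 3602 and 2273 bp lay in runs. Another of the 8 lay within 1 Mb of a gap, and neither of the 2 with UBF of HMEC did. A run here is a series of Pol I peaks whose neighbours lie within 10 kb of each other, with at least 5 of them without UBF. A centromeric gap is the longest interval of a chromosome that holds no peak of the 3 lists, since no hg19 sequence was used here.

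The widest Pol I peak without UBF covered 45535 bp of the unlocated contig GL000220.1, from 101469 to 147004. From general knowledge of the hg19 assembly, this contig carries ribosomal DNA with the 45S genes; no annotation of hg19 was used here to test that. Neither UBF list held a peak on this contig, and neither did on GL000216.1 or GL000225.1, where Pol I had 1 narrow peak each (350 and 214 bp). UBF is known to bind the 45S genes, and the sources used here do not say which contigs or repeats were filtered from each list. Whether UBF was bound to GL000220.1 cannot be told from a list without a peak there.

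The contigs held 12 Pol I peaks without UBF in all. GL000192.1 had 5 of them, of 207 to 390 bp, beside 4 UBF peaks of HMLER and 1 of HMEC on the same contig. The nearest pair, a Pol I peak from 484081 to 484471 and a UBF peak of HMLER, were 900 bp apart. A further 2 Pol I peaks of GL000192.1 overlapped UBF of HMLER by 40 and 69 bp and were not counted as without UBF. GL000205.1 carried a peak of 1972 bp, from 85048 to 87020, that lay 50571 bp from UBF, and GL000195.1 a peak of 901 bp, 106130 bp from UBF. GL000212.1 carried 2 narrow peaks, of 322 and 154 bp, at 30621 and 49111 bp from UBF. Chromosome Y of the assembly held 5 Pol I peaks without UBF, of 144 to 333 bp, at 623894 to 6496368 bp from the nearest UBF peak. Whether these lines carry a chromosome Y was not tested.

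Next in width came 3 neighbouring peaks at the edge of the centromeric gap of chromosome 16. They ran from 46385805 to 46397028 (11223 bp), from 46397051 to 46403155 (6104 bp) and from 46403314 to 46409502 (6188 bp), and a peak of 1050 bp followed at 46412651. The first 3 covered almost the whole stretch between them, with 23 bp between the first and the second peak and 159 bp between the second and the third. The nearest UBF peak of HMLER lay 241095 bp from the last of them, and the nearest of HMEC 763014 bp. Chromosome 6 had a peak of 3584 bp that ended at its gap, from 58776201 to 58779785, and chromosome 1 a peak of 2452 bp that ended at its gap, from 121482996 to 121485448.

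Taken over all chromosomes, 170 of the Pol I peaks without UBF lay within 1 Mb of a centromeric gap (2.11%, 1.8 to 2.44). The share was 0.938% (0.430 to 1.77) for Pol I peaks with UBF of HMLER only and 1.13% (0.233 to 3.26) for those with UBF of HMEC, the smallest class, whose interval overlaps that of the peaks without UBF. It was 1.05% (0.939 to 1.16) in the UBF list of HMLER and 0.844% (0.670 to 1.05) in that of HMEC. The edge of a gap is set by the outermost peak of any list, so a gap between peaks begins and ends with a peak by construction. On chromosomes 13, 14, 15, 21 and 22 the gap was the stretch before the first peak, with a flank on its far side only. The 170 peaks were spread over 21 chromosomes. Chromosome 1 had 41, chromosome 10 had 19, chromosome 2 had 16 and chromosome 19 had 11. Their median width was 326 bp, against 287 bp for Pol I peaks without UBF elsewhere. The medians near gaps and elsewhere were 331 and 299 bp for Pol I peaks with UBF of HMLER only. They were 311 and 310 bp for those with UBF of HMEC, 1045 and 981 bp for UBF of HMLER, and 592 and 468 bp for UBF of HMEC. The median distance of the 170 peaks to UBF was 110176 bp, against 20525 bp for those elsewhere on chromosomes 1 to 22 and X. A gap holds no UBF peak by definition, so these distances depend in part on how gaps were defined.

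There were 5 runs in the flanks of centromeric gaps, on chromosomes 1, 2, 10, 11 and 19, and no UBF peak of either line entered them. The same held for 15 of all 21 runs, so a run without UBF was not particular to the flanks. On chromosome 1, 14 of the 41 peaks near the gap formed a run from 144179396 to 144210116, with widths of 226 to 663 bp, 106487 bp or more from UBF. On chromosome 2, 11 of the 16 peaks near the gap covered 51.1% of a stretch from 92291377 to 92326137, and 9 of them were 1000 bp wide or more. The widest of these ran from 92317632 to 92322241 (4609 bp), 348800 bp from UBF of HMLER and 3380579 bp from UBF of HMEC. On chromosome 10, 11 of the 19 peaks near the gap, of 204 to 2030 bp, lay between 42383084 and 42409379, and a separate peak of 3057 bp lay from 42597469 to 42600526. On chromosome 11, 8 peaks lay between 51579556 and 51591522, and the nearest UBF peak of either line was 2349434 bp or more away. The last 5 of them were alike, with widths of 950, 723, 808, 808 and 857 bp, and their starts followed each other at 2080, 2154, 2047 and 1965 bp. Chromosome 19 had a shorter run of 5 peaks from 27731915 to 27738708, of 256 to 730 bp.

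The run with the most covered bases, 41310 bp, lay away from a gap on chromosome X, from 114954812 to 115004472. It held 15 Pol I peaks without UBF, 12 of them 1000 bp wide or more, and 1 Pol I peak that met a UBF peak of HMLER. From general knowledge of hg19, this stretch of the long arm holds the macrosatellite DXZ4, a tandem repeat studied for its open, CTCF-bound form on the inactive X; the identification was not tested here. The 16 Pol I peaks covered 83.2% of the 49660 bp of the run, with a median of 120 bp between neighbours and a median of 3038 bp between their starts. The widest without UBF ran from 114976922 to 114981677 (4755 bp), from 114988856 to 114993317 (4461 bp) and from 114993324 to 114997682 (4358 bp). A single UBF peak of HMLER, of 534 bp, lay inside the Pol I peak from 114968149 to 114973815 (5666 bp). UBF of HMEC had no peak in the run, and its nearest peak lay 2347573 to 2390170 bp from the 12 wide peaks.

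A second covered run lay on chromosome 1 from 228745592 to 228782634, where hg19 is known to place the 5S ribosomal RNA array. It held 11 Pol I peaks without UBF, of 751 to 2853 bp, and 3 Pol I peaks that met UBF of HMLER, of 6417, 1034 and 3602 bp. The starts of the 14 peaks followed each other at a median of 2185 bp, and the peaks covered 75.1% of the run. The 3 UBF peaks of HMLER were each narrower than the Pol I peak they met, at 381, 770 and 2240 bp, and 1 Pol I peak without UBF ended 206 bp before the first of them. UBF of HMEC had no peak there. A run on chromosome 1 from 161412718 to 161439648 was sparser, with 27.7% covered and a median of 4714 bp between starts. It held 5 Pol I peaks without UBF of 740 to 1751 bp and 1 with UBF of HMLER.

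**Figure D2:**
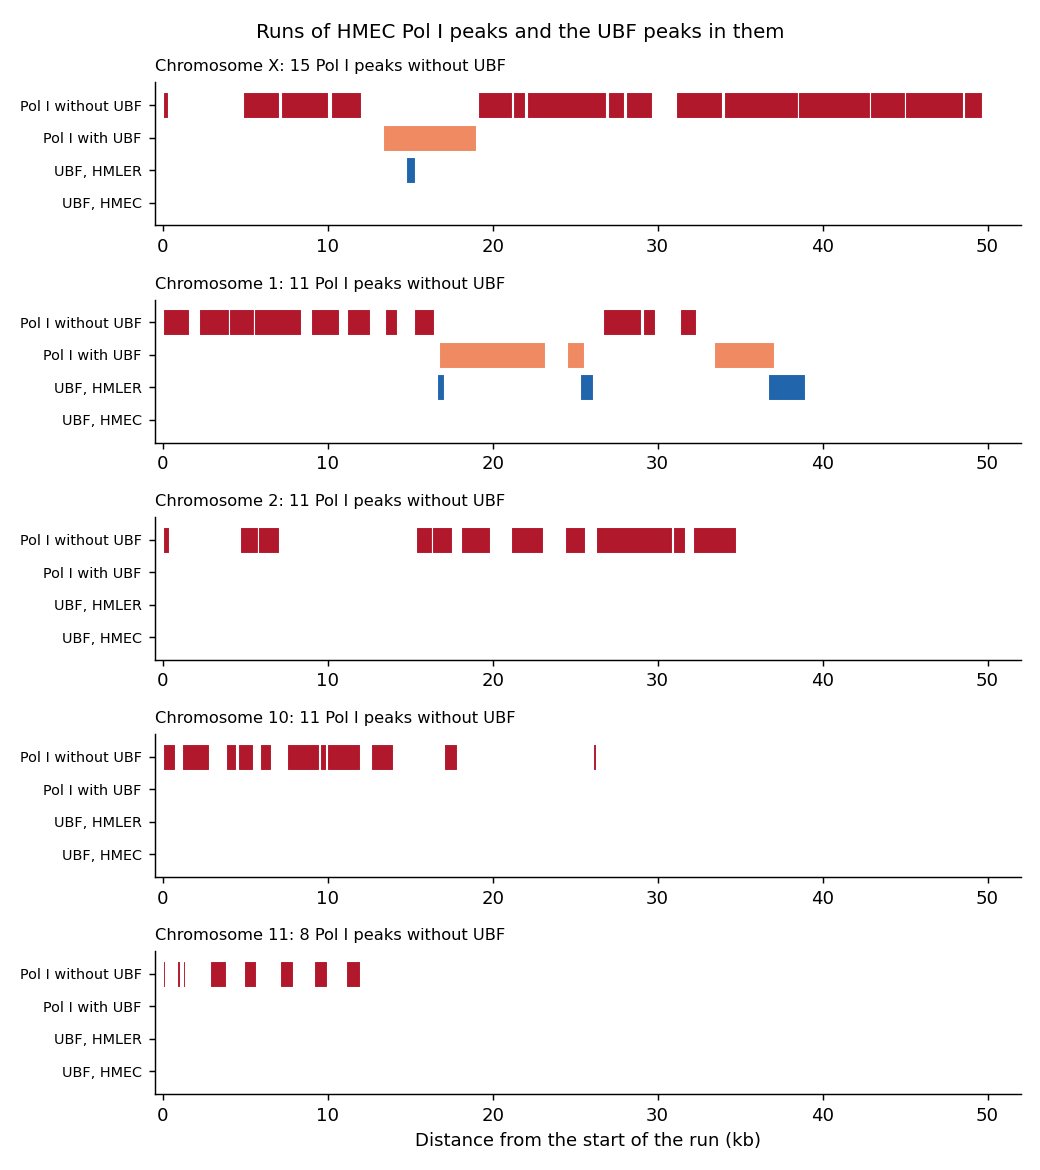
The 4 runs of Pol I peaks with the most covered bases, on chromosomes X, 1, 2 and 10, and the run of chromosome 11. The x axis gives the distance from the start of the run (kb), and the rows show Pol I peaks without UBF, Pol I peaks with UBF, UBF peaks of HMLER and UBF peaks of HMEC, each bar 1 peak drawn to scale. UBF peaks of HMLER enter the runs of chromosomes X (1 peak) and 1 (3 peaks), and UBF peaks of HMEC enter none of the 5.

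Another 5 wide peaks lay outside contigs, gap flanks and runs. The widest of them lay on chromosome 4 from 182160327 to 182162897 (2570 bp), nearer to UBF of HMEC, at 289892 bp, than to UBF of HMLER, at 900660 bp. The others were 1515 bp wide on chromosome 17 from 41399696, 1290 bp on chromosome 9 from 320725, 1274 bp on chromosome 9 from 140739709 and 1230 bp on chromosome 1 from 148010015. The last was not alone: Pol I peaks without UBF of 731, 933 and 524 bp lay beside it, from 148007324, 148013699 and 148015251, too few for a run by the count of 5.

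Most Pol I peaks without UBF stood alone. In fixed windows of 100 kb, 5131 of them (63.6%) had the window to themselves among their kind, and 40 windows on 14 chromosomes held 5 or more, with 307 peaks in all (3.80%). Chromosome 1 had 13 of these windows and chromosome 16 had 7. UBF of HMLER had a peak in 24 of the 40 windows and UBF of HMEC in 18, while 13 windows held no UBF peak of either line. Most of these clusters thus had a UBF peak in the same window, and by the rule none of their counted Pol I peaks met one. How many of all windows with such peaks held UBF was not counted. By distance, 81.6% of all Pol I peaks without UBF lay within 100 kb of UBF. That share counts peaks and reaches to either side of each, so it is not a background for the windows.

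The fullest window, on chromosome 1 from 145300001 to 145400000, held 23 Pol I peaks without UBF and no other Pol I peak. They were narrow, at 235 to 838 bp with a median of 396 bp (the widest from 145346592 to 145347430), and followed each other at a median of 1626 bp from start to start. The window held 3 UBF peaks of HMLER and 1 of HMEC, the nearest 8931 bp from a Pol I peak. The window from 144100001 held 14 such Pol I peaks and the window from 148200001 held 13, with 0 and 2 UBF peaks of HMLER and 0 and 1 of HMEC. The second of these 3 windows holds much of the chromosome 1 run near the gap. All 3 lie in or beside band 1q21, a part of the genome known for large duplicated segments. Reads of 1 copy can be placed on another, and whether that took place in these windows was not tested. On chromosome 7, the window from 143900001 was different: 12 Pol I peaks without UBF lay among 3 Pol I peaks with UBF and 5 UBF peaks of HMEC, with a median distance to UBF of 1438 bp.

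The other windows among the 10 fullest held 9 to 13 peaks. Windows with 9 peaks were taken in order of position, so those of chromosome 16 from 18400001 and chromosome 17 from 18900001, as full, fell outside the 10. The windows of chromosomes X and 1 that cover the runs described above held 13 and 11. On chromosome 16 the window from 30200001 held 10 peaks of 162 to 331 bp, and the window from 15000001 held 9, with 2 UBF peaks of HMLER and 5 of HMEC. On chromosome 5 the window from 68900001 held 9 peaks of 253 to 405 bp and no UBF peak, the nearest being 47059 bp away. The window of chromosome 10 from 42300001, at the centromeric gap, held 9 peaks with a median of 914 bp. Among the 40 windows, the highest median widths were those of chromosomes X (2103 bp), 1 (1506 bp, from 228700001), 2 (1484 bp, from 92300001) and 10 (914 bp), each of which overlaps a run described above.

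A Pol I peak without UBF had its nearest UBF peak of either line at a median distance of 20960 bp, edge to edge (interval of the median 20125 to 22065), with quartiles of 6274 and 64212 bp. Within 1 kb of UBF lay 584 peaks (7.24%, 6.68 to 7.82), within 10 kb 33.8%, within 100 kb 81.6% and within 1 Mb 98.8%. No distance could be given for the 3 peaks on contigs without UBF. The median was 24361 bp to UBF of HMLER and 84410 bp to UBF of HMEC, and UBF of HMLER was the nearer for 6919 of 8062 peaks (85.8%). The HMLER list is the longer one. With that list reduced to its 9478 widest peaks, the median was 79900 bp to UBF of HMLER, close to that of HMEC, and 2.04% (1.75 to 2.38) lay within 1 kb, against 1.16% (0.942 to 1.42) for HMEC.

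**Figure D3:**
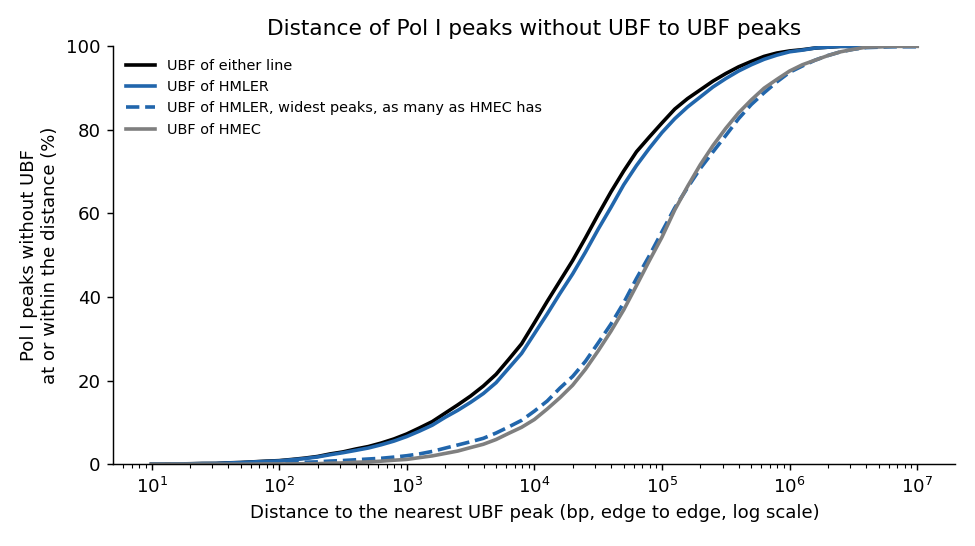
Distance to the nearest UBF peak on the x axis (bp, edge to edge, log scale) and the percent of the 8069 Pol I peaks without UBF at or within that distance on the y axis, for UBF of either line, of HMLER, of HMLER reduced to as many peaks as HMEC has, and of HMEC. The curves of either line and of the full HMLER list lie to the left, with medians of 20960 and 24361 bp, and the reduced HMLER list (79900 bp) runs beside HMEC (84410 bp).

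The rule turns on single bases at its border. The nearest Pol I peak kept as without UBF, on chromosome 21 from 34639454 to 34639765, abutted a UBF peak of HMLER with 0 bp between them. The next 4 were 3, 6, 6 and 9 bp from UBF, on chromosomes 19, 17, 19 and 11. On the other side, a peak of chromosome 16 from 11768828 to 11769098 was left out for 1 shared base with UBF of HMLER, and the next 4 shared 4, 4, 10 and 11 bp. These border peaks were 159 to 311 bp wide, like the rest of the list. At the far end on chromosomes 1 to 22 and X, a peak of 186 bp on chromosome 21 from 24059819 to 24060005 lay 2873874 bp from any UBF peak, and a peak of 254 bp on chromosome 16 from 34933056 to 34933310 lay 2642661 bp away. The 3 farthest after these belonged to the run of chromosome 11.

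Width changed little with the distance to UBF, except for the wide peaks. The median was 293 bp within 1 kb of UBF, 290 bp at 1 to 10 kb, 285 bp at 10 to 100 kb, 288 bp at 100 kb to 1 Mb and 282 bp beyond. Peaks of 1000 bp or more made up 0.342% (0.0415 to 1.23) within 1 kb, 0.513% (0.256 to 0.916) at 1 to 10 kb and 0.415% (0.237 to 0.673) at 10 to 100 kb. They made up 1.58% (0.994 to 2.38) at 100 kb to 1 Mb, where 22 of them lay, and 1.11% (0.0281 to 6.04) beyond, where there was 1. Of the 22, 20 lay near centromeric gaps of 5 chromosomes, with 9 on chromosome 2, 5 on chromosome 10 and 4 on chromosome 16, so a few clusters carry the higher share.

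**Figure D4:**
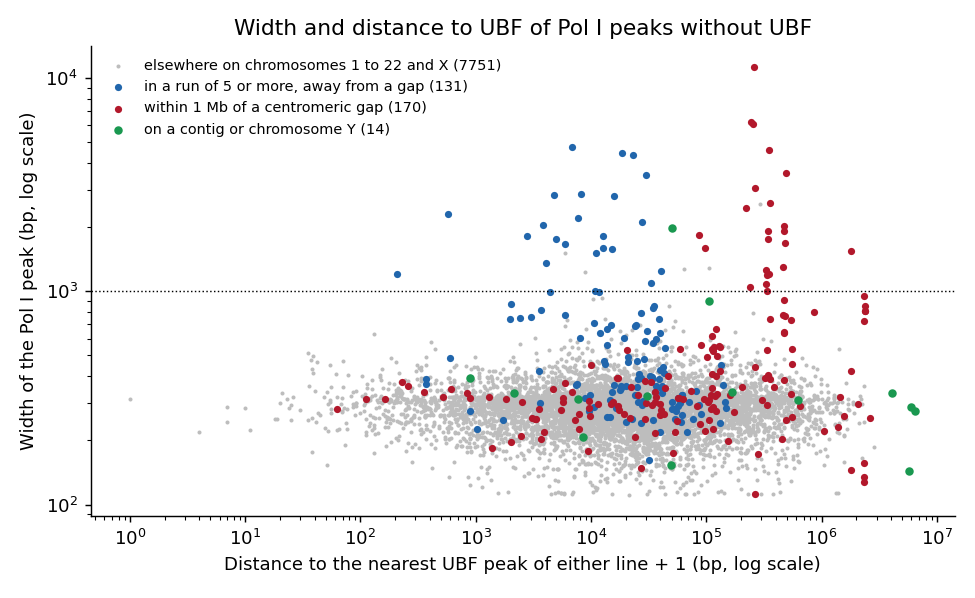
Width (bp) against distance to the nearest UBF peak of either line (bp plus 1), both on log axes, for the Pol I peaks without UBF that have a distance. Colours mark peaks near a centromeric gap, in runs, on contigs or chromosome Y, and elsewhere; of the peaks above the dotted line at 1000 bp, 23 are near a gap and 23 in runs, and the bulk of the list lies near 288 bp at every distance.

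Pol I peaks without UBF were also farther from other Pol I peaks than those with UBF. Their nearest Pol I neighbour lay at a median of 71385 bp, against 45424 bp for Pol I peaks with UBF of HMLER only and 32731 bp for those with UBF of HMEC. A neighbour within 10 kb was found for 15.5% (14.7 to 16.3), 23.3% (20.6 to 26.1) and 32.0% (26.4 to 37.9) of these classes. The intervals do not overlap, but peaks of 1 cluster share their neighbours, so they understate the error. Peak density and the share without UBF both differ between chromosomes, and neither was adjusted for. The difference between the classes was not tested.

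The share of Pol I peaks without UBF was not the same on every chromosome. It was 97.3% on chromosome 18 (93.9 to 99.1), 95.5% on chromosome 13 (91.5 to 97.9), 95.2% on chromosome X (92.1 to 97.4) and 93.2% on chromosome 4 (90.4 to 95.4). It was lowest on chromosome 19 at 78.5% (73.5 to 83.0) and chromosome 17 at 79.3% (75.3 to 82.9). UBF of HMLER was sparse on the first group, with 5.26, 6.02, 4.28 and 4.45 peaks per Mb, and dense on chromosomes 19 and 17, with 31.5 and 27.6. The rule counts overlaps, so fewer UBF peaks on a chromosome leave more Pol I peaks without one, and the 2 values are not independent. By length, Pol I peaks without UBF were densest on chromosome 17, at 4.47 per Mb, and sparsest on chromosome 21, at 1.54 per Mb. Their median distance to UBF was 7237 bp on chromosome 19, 8663 bp on chromosome 17 and 65238 bp on chromosome X. Their median width hardly moved, between 270 bp on chromosome 21 and 295 bp on chromosome 10.

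**Figure D5:**
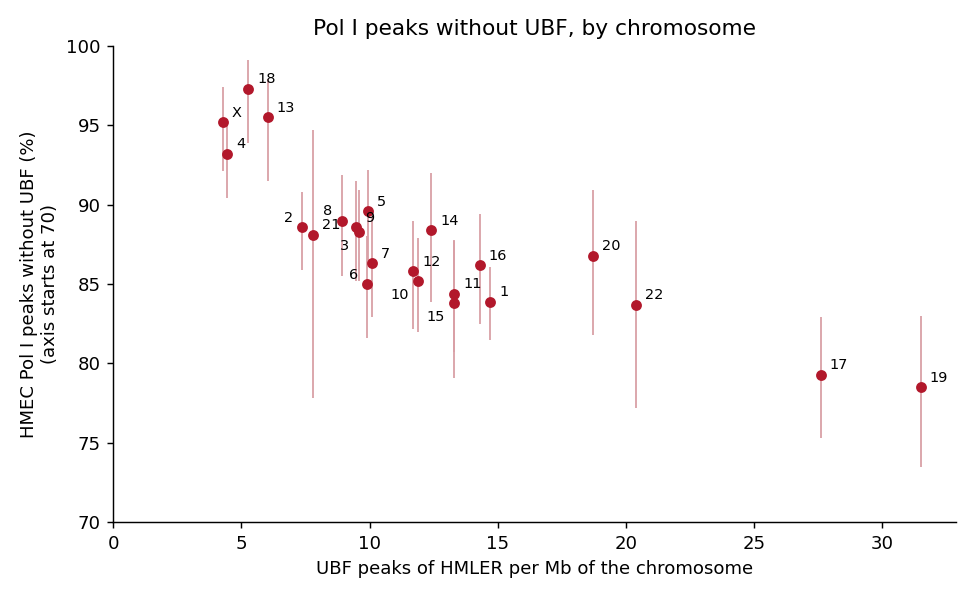
The percent of HMEC Pol I peaks without UBF on the y axis (from 70, with exact 95% intervals as bars) against the UBF peaks of HMLER per Mb on the x axis, 1 point per chromosome. Chromosomes 18, 13, X and 4 lie at the upper left, between 93.2% and 97.3%, and chromosomes 17 and 19 at the lower right, at 79.3% and 78.5%.

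On chromosome X the lists took unequal shares of their peaks. It held 278 of the Pol I peaks without UBF (3.45%, 3.06 to 3.87), against 663 UBF peaks of HMLER (2.05% of that list, 1.90 to 2.21) and 87 of HMEC (0.918%, 0.736 to 1.13). The whole Pol I list had 292 peaks there (3.14%, 2.8 to 3.52). The peaks without UBF make up 86.8% of that list, so these 2 shares lie close by construction. Of the 292, 278 were without UBF (95.2%, 92.1 to 97.4), against 86.8% over the list. The rule counts overlaps, so this share is not independent of the number of UBF peaks, and the difference was not tested on chromosome X. UBF of HMEC stood there at 0.561 peaks per Mb, against 2.12 or more on every autosome. The 15 peaks of the run described above are a small part of the 278.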

How the data were processed

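ChIP-seq peak lists of HMEC Pol I, HMLER UBF and HMEC UBF were used, 1 list each. As deposited, each is the authors' list of called peaks with chromosome, start and end, and no other value. The submitters' processing notes list CASAVA 1.8.2, BWA and Picard, and the human build hg19. The sources used here do not give the peak caller, its threshold, any repeat filter or the counting origin of positions, which are printed as in the files. How reads that fit several copies of a repeat were placed is not given either. Whether that placement bears on the wide peaks and runs was not tested. The 7 mouse lists were not used.

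Contig names were made alike (1_gl000192_random and GL000192.1). An overlap was at least 1 bp, and a peak's width was its end minus its start. Windows of 100 kb were filled by peak centre. The longest interval without a peak, the stretch before the first peak included, stood for the centromeric gap, with flanks of 1 Mb. No gene or sequence is given, because no hg19 reference was used here. Regions named are the 10 widest peaks, the 10 fullest windows, the contig peaks, the 5 nearest to and the 5 farthest from UBF, and the 5 smallest overlaps. The runs, the other wide peaks and the chromosomes named were picked after their values were seen. The members and lists were chosen with earlier results of these data known.

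Overlap, distance and run code was tested on simulated peaks. Python 3.11.15, pandas 2.3.3 and scipy 1.17.1 were used. No difference was tested between lists, since each stands for 1 sample.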

Additional observations from a re-analysis of the deposited data

How the results depend on the processing

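The share of Pol I peaks without UBF was 86.8% and moved with what counts as UBF: it was 88.6% when at least 50% of the Pol I peak had to be covered, 85.0% by a centre within 1000 bp, 80.5% with UBF peaks widened by 1000 bp, and 84.6% in the wider 50% of the Pol I list. It was 87.6% against UBF of HMLER alone, 97.1% against UBF of HMEC alone, and 92.0% when only the widest HMLER peaks were kept, as many as HMEC has. Leaving out contigs and chromosome Y gave 86.8%, as did contig names as spelled (8071 peaks) and counting both end bases (8068 peaks), both of these chosen after seeing the data. The median widths moved by less than their intervals under the 3 alternatives tried. Clusters depended on the scale: 40 windows of 100 kb held 5 or more peaks, against 27 of 50 kb, 561 of 1 Mb, 21 runs within 10 kb (with or without the Pol I peaks that had UBF) and 59 within 50 kb. The pericentromeric share was 2.11% within 1 Mb, 1.54% within 500 kb and 8.63% within 5 Mb. The median distance to UBF was 20960 bp, and 21597 bp from centre to centre, 24361 bp to HMLER alone, 84410 bp to HMEC alone and 79900 bp to the reduced HMLER list. The share of wide peaks on contigs, near gaps or in runs was 90.6% from 1000 bp, 56.1% from 500 bp and 95.5% from 2000 bp, widths chosen after seeing the data. No paired analysis was possible because each list stands for 1 sample. Without read counts, peaks that a list missed cannot be counted.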
